A study of Mus musculus with 9 samples.

Results

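The genes of the mitochondrial genome (mtDNA) were examined in mouse gastrocnemius, the large calf muscle, by RNA sequencing. Members were all genes whose symbol starts with mt-, after matching the deposited Ensembl identifiers to the GENCODE M21 annotation of the mouse build GRCm38. This gave 37 genes of the 55416 identifiers in the table, of which 52083 had a symbol. They comprised 13 protein genes, 2 ribosomal RNA (rRNA) genes and 22 transfer RNA (tRNA) genes.

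The study compared 3 groups of 3 libraries. AET_MET muscle came from mice that ran on a motorized treadmill for 60 minutes a day on 5 days a week over 8 weeks and drank metformin, a glucose-lowering drug, at 2 mg/mL in their water. AET muscle came from mice with the same training and no metformin, and SED muscle from sedentary mice. The sources used here give no strain, sex, age, feeding state or time between the last run and collection. No group given metformin without training was analysed here, so a difference between AET_MET and AET cannot be told apart from an effect of the drug that needs no training. The labels do not say that the libraries of a group came from separate mice, so the spread behind each p-value may be technical. Library names share a prefix within each group that differs between groups, and its meaning is not given. Anything that prefix marks cannot be told apart from group. In both AET and AET_MET the names end in L, R and N in the order of the replicate numbers. SED names have no such letter, and the meaning of the letters is not given.

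Mammalian mtDNA is a small circle in many copies per cell, and its genes have no introns. Both strands are transcribed into long precursors by the RNA polymerase Polrmt with the factors Tfam and Tfb2m. Enzymes then release the rRNAs and mRNAs by cutting out the tRNAs that lie between them. The proteins are core subunits of respiratory complexes I, III and IV and of ATP synthase (complex V), and are made on mitochondrial ribosomes that contain both rRNAs. Nearly all protein genes are read in the plus direction of the reference, and mt-Nd6, a membrane subunit of complex I, is the exception. Endurance training is known to raise the mitochondrial content of muscle, and metformin is known to inhibit complex I.

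Libraries held 15434424 (AET_MET replicate 1) to 25355877 (AET replicate 3) expected counts, which are the estimated read numbers of the deposited table. Levels are in CPM, that is, counts divided by the library total after adjustment with edgeR's TMM factors and put on one scale for all libraries. Fast-fiber markers summed to 96900 to 109820 CPM in AET_MET, 97710 to 116890 in AET and 96686 to 113760 in SED, so the defining genes of fast muscle were high in every library. Slow-fiber markers, 8 genes of oxidative fibers of which 7 reached 10 CPM, summed to 70.6 to 646 CPM in AET_MET, 299 to 1131 CPM in AET and 749 to 917 CPM in SED. Of the 8, none changed in any of the 3 comparisons by the edgeR quasi-likelihood test at an adjusted p under 0.05. In whole muscle, fewer cells or mitochondria and less RNA in each cannot be told apart.

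Of the 37 genes, 15 had enough counts to be tested, meaning that they passed edgeR's filterByExpr. These were all 13 protein genes and both rRNA genes. The plus strand carries 28 of the 37 genes, namely 12 protein genes, 2 rRNAs and 14 tRNAs. The minus strand carries mt-Nd6 and 8 tRNAs. Summed over the 9 libraries, the 12 plus-strand protein genes held 12761176 counts, the rRNAs 12826860 counts and mt-Nd6 26465 counts. In single libraries mt-Nd6 had between 1138 counts (AET_MET replicate 1) and 6432 counts (AET replicate 3). The smallest count of a tested gene was 389.7, for mt-Co2 in AET replicate 1.

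No tRNA gene could be tested. Of 22, 17 had no count in any library, and the other 5 (mt-Tm, mt-Tv, mt-Tn, mt-Tc and mt-Ts1) held 8 counts on the plus strand and 9 on the minus strand in all. A count of 0 allows up to 3 counts, between 0.117 and 0.185 CPM depending on the library, for counting error only. The tRNA genes are 59 to 75 bases long, and the labels name an mRNA library kit. The part of length and kit in these counts was not tested, and rRNA counts from such a kit need not follow rRNA amounts in the tissue. The plus-strand tRNA with the highest count in a single library was mt-Tm, for methionine, with 3 counts in AET replicate 2. Its gene is shown for its size, at chrM:3845-3913 on the plus strand of GRCm38.
mt-Tm: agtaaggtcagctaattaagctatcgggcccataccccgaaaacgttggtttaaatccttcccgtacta

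The compactness of mtDNA bears on how reads can be assigned, and the next stretches are shown because genes share bases in them (capitals). mt-Atp8 and mt-Atp6, subunits of ATP synthase, share 43 bases on the plus strand, which open with the ATG start of mt-Atp6 (chrM:7912-7984). mt-Nd5 on the plus strand and mt-Nd6 on the minus strand meet end to end and share 14 bases (chrM:13537-13580, written as the plus strand).
mt-Atp8/mt-Atp6: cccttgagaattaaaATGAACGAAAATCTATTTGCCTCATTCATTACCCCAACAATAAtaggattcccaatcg
mt-Nd5/mt-Nd6: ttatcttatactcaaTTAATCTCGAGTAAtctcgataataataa
mt-Nd4l and mt-Nd4 share 7 bases, and mt-Atp6 and mt-Co3 share 1. The strand setting of the counting is not given in the sources used here. Reads of mt-Nd6 and plus-strand reads across any of its 519 bases therefore cannot be told apart. The same holds for the tRNAs that lie opposite a precursor.

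Beyond overlaps, 7 protein genes have a copy in the nuclear genome that shares at least 90% of its 31-base words with mtDNA. The 7 copies are annotated on the minus strand of chromosome 1 between 24611535 and 24616197, in mtDNA gene order. Gm28661 (681 bases) matches mt-Co2, Gm10925 (678 bases) mt-Atp6, Gm28437 (783 bases) mt-Co3, Gm10222 (294 bases) mt-Nd4l and Gm28439 (876 bases) the first part of mt-Nd4, with 0 mismatches each. Gm28438 (345 bases) differs from mt-Nd3 at 1 base, T3C, counted from 1 at the gene's 5′ end, with the mitochondrial base first. Gm29216 (492 bases) matches the 3′ part of mt-Co1 with 6 mismatches. Stretches of 80 bases from the start of the mt-Nd3 pair, from within the mt-Co2 pair and from the start of Gm29216 with mt-Co1 show how little there is to tell a read's origin by (differing bases in capitals).
mt-Nd3 (chrM:9459-9538, plus strand): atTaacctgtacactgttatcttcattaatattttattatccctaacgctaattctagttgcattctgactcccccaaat
Gm28438 (chr1:24613040-24613119, minus strand): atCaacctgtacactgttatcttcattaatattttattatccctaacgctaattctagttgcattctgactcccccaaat
mt-Co2 (chrM:7315-7394, plus strand): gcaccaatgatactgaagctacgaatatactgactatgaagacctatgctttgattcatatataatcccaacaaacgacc
Gm28661 (chr1:24615184-24615263, minus strand): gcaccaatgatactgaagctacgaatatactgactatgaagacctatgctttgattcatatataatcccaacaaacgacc
mt-Co1 (chrM:6381-6460, plus strand): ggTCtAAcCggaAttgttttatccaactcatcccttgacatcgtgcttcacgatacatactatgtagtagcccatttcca
Gm29216 (chr1:24616118-24616197, minus strand): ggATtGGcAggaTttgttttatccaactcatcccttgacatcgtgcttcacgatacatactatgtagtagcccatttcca

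RSEM, named in the submitters' processing notes, divides reads that fit several genes by an estimate. The share of the counts of a pair that the deposited table gives to the nuclear copy ran from 98.6% to 99.9% for mt-Co2, from 94.7% to 99.2% for mt-Co3 and from 76.1% to 87.7% for mt-Atp6. It was at most 14.9% for mt-Co1. For mt-Nd4 it was 0% in all 9 libraries, although the copy is identical to the first part of the gene. Copies with 0 mismatches thus received splits from 0% to 99.9%. The pairs are not alike in length, as the copy has 876 bases against 1378 of mt-Nd4, and 681 against 684 of mt-Co2.

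The split also differed between libraries. For mt-Nd3 the copy took 0%, 0.00467% and 12.7% of the pair in AET_MET, 81.1%, 35.1% and 59.1% in AET, and 7.86%, 3.04% and 32.8% in SED. All 3 AET libraries lay above all other libraries. For mt-Nd4l it took 6.34%, 18.1% and 24.6% in AET_MET, 43.9%, 42.5% and 40.4% in AET, and 8.75%, 2.67% and 21.1% in SED, again with all AET libraries highest. Levels and changes are therefore given both as deposited and with the counts of each copy added to its mitochondrial gene. The sum holds any real transcript of the copies as well, which cannot be told apart from the mitochondrial one where the sequences are identical. The 7 copies together held 3.87% to 4.57% of the counts of a library.

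**Figure D1:**
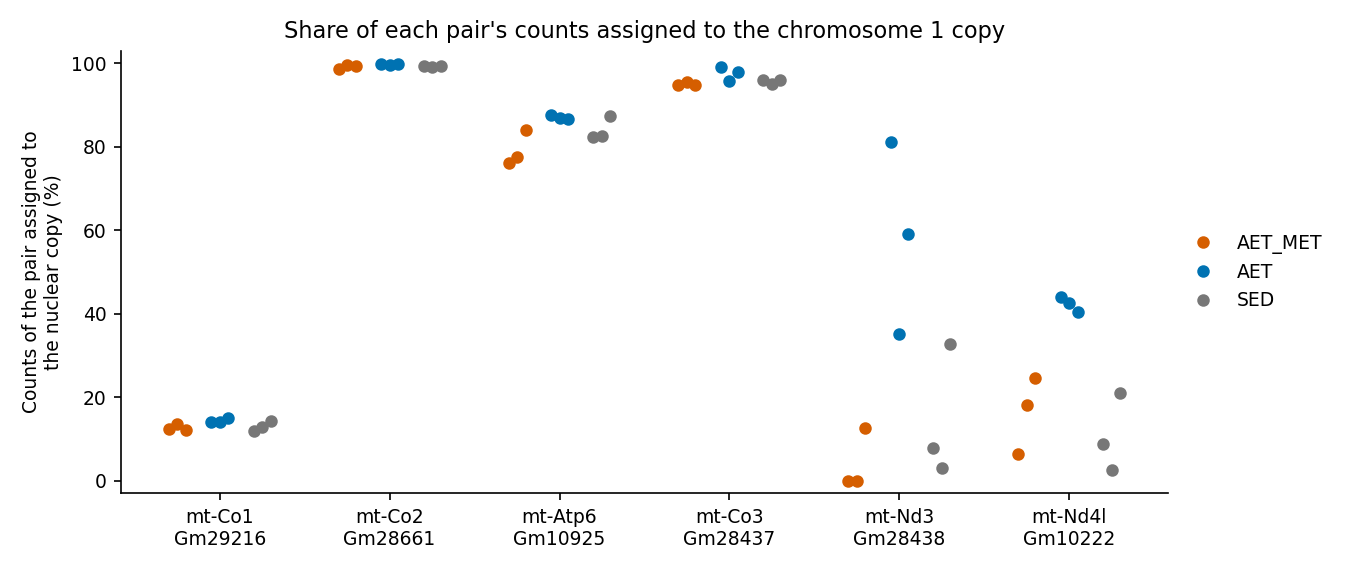
Percent of the counts of each pair of mitochondrial gene and nuclear copy that the deposited table assigns to the copy (vertical axis), for 6 pairs, with 1 point per library and AET_MET, AET and SED side by side. The mt-Co2 and mt-Co3 copies take over 90% everywhere, while for mt-Nd3 and mt-Nd4l the AET points lie above all others. The mt-Nd4 pair, at 0% in every library, is not drawn.

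As deposited, mitochondrial genes took 12.2% ± 0.894 of library counts in AET_MET, 14.1% ± 1.48 in AET and 12.9% ± 1.39 in SED (mean ± SD, n = 3 each). With the copies added the shares were 16.2% ± 1.02 in AET_MET, 18.4% ± 1.55 in AET and 17.0% ± 1.72 in SED. By library they were 17.0%, 16.4% and 15.04% in AET_MET, 19.95%, 16.9% and 18.5% in AET, and 15.3%, 17.0% and 18.7% in SED. The groups overlapped in each pairing. The mRNAs alone, with copies, took 10.4% ± 0.520 in AET_MET, 11.1% ± 0.445 in AET and 10.6% ± 0.639 in SED, and the rRNAs took 5.73% ± 0.550 in AET_MET, 7.39% ± 1.13 in AET and 6.39% ± 1.14 in SED.

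Per kilobase of gene, the counts of the mitochondrial RNAs differed widely. With copies added, the mean over 9 libraries was 37150 CPM per kb for mt-Rnr2, the large rRNA, and 7001 CPM per kb for mt-Rnr1, the small rRNA. Of the mRNAs, those of the complex IV (cytochrome c oxidase) core stood at the top, with 31450 CPM per kb for mt-Co1, 24150 for mt-Co3 and 16030 for mt-Co2. mt-Atp6 followed at 10080 CPM per kb, then mt-Nd1 at 7029, mt-Nd3 at 5577, mt-Cytb (the complex III cytochrome b) at 4849 and mt-Atp8 at 4162. The complex I genes mt-Nd4 (2147 CPM per kb), mt-Nd2 (1649), mt-Nd5 (1107) and mt-Nd4l (459) were lower, and mt-Nd6 was lowest at 255. As deposited, mt-Co2 stood last instead, at 95.4 CPM per kb, and mt-Co3 and mt-Atp6 stood at 937 and 1655. The order between neighbours such as mt-Nd1 and mt-Rnr1 was within the spread between libraries.

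**Figure D2:**
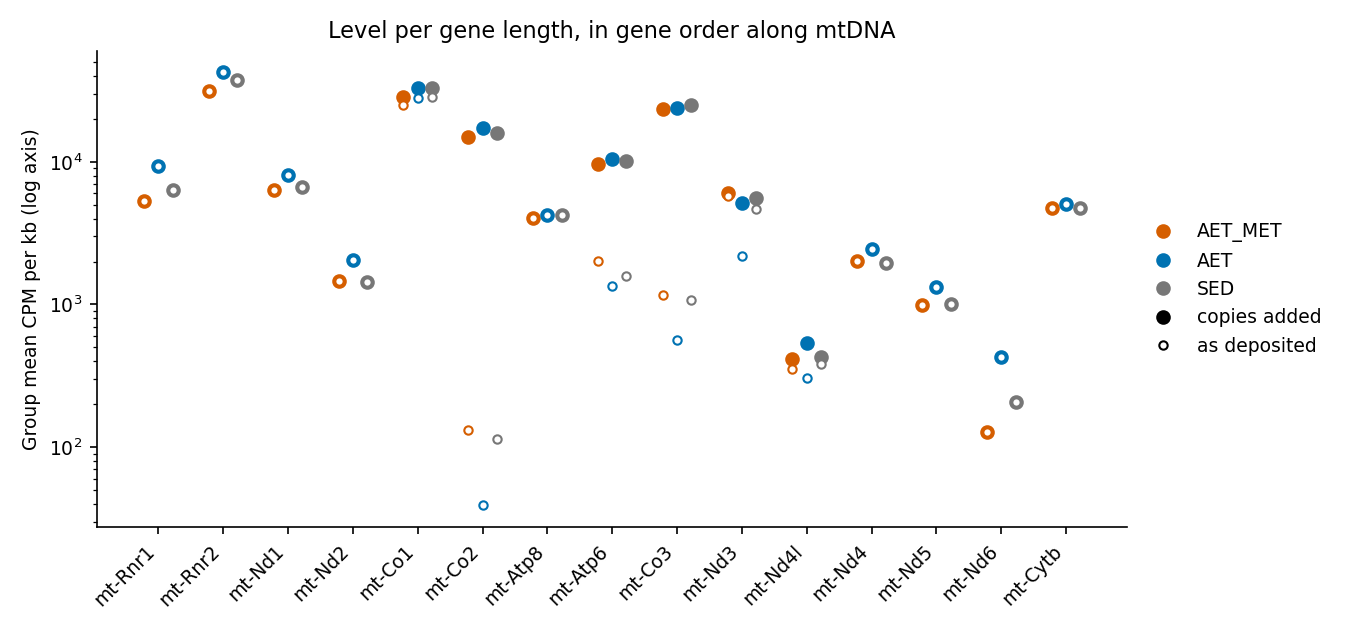
Group mean level of the 15 tested genes in CPM per kb of gene (log axis), in gene order along mtDNA, for AET_MET, AET and SED from left to right, with nuclear copies added (filled) and as deposited (open). mt-Rnr2 and mt-Co1 are highest and mt-Nd6 lowest with copies added, and open points fall far below filled ones for mt-Co2, mt-Atp6 and mt-Co3.

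AET_MET against AET asks what metformin changed in trained muscle. Of the 15 tested genes, 1 fell and 0 rose, where 3.43% of all 13944 tested genes were called and 1.77% fell (edgeR quasi-likelihood test, Benjamini-Hochberg adjusted p under 0.05). The gene was mt-Nd6, the only protein gene of the minus strand. As the strand setting is not known, its counts may include plus-strand reads. Whether its counts from an mRNA library kit follow its amount in the tissue was not tested. It had 70.2, 69.6 and 60.6 CPM in AET_MET, 272, 134 and 261 CPM in AET, and 85.3, 95.7 and 144 CPM in SED. All 3 AET_MET libraries lay below all AET and all SED libraries, and AET replicate 2 lay far below the other AET libraries and within the SED range. The means were 66.8 ± 5.41 CPM in AET_MET and 222 ± 76.7 CPM in AET (SD, n = 3). The log2 change was -1.73 ± 0.32 (SE, edgeR adjusted p = 0.0386). None of the nuclear copies matches this gene, and with the copies of other genes added it was again the only call (adjusted p = 0.0388).

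The mt-Nd6 call was near the threshold. It was kept in 3 of the 9 fits that left out 1 library, those without AET replicate 2, SED replicate 1 or SED replicate 3. Without AET_MET replicate 1, 2 or 3, AET replicate 1 or 3, or SED replicate 2, the edgeR adjusted p was 0.0621 to 0.15, and the log2 change stayed between -2.00 and -1.56 in all 9 fits. It was also lost with no filter on low counts (adjusted p = 0.0575), with only AET_MET and AET in the fit (0.0513), and with the slow-fiber marker level as a covariate, where the log2 change was -1.64 ± 0.40 (0.142). The summed level of 5 endothelial markers also lay in a lower range in AET_MET (166 to 202 CPM) than in AET (217 to 249 CPM), against 190.1 to 218 CPM in SED, with 1 of the 5 lower by edgeR in AET_MET against AET. Its part in the mt-Nd6 result was not tested.

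Both rRNAs had negative estimates in AET_MET against AET, and neither passed the test. mt-Rnr1 had 5660.1, 5037 and 4538 CPM in AET_MET, 11741, 5966 and 9071.5 CPM in AET, and 4914, 5693 and 7552 CPM in SED. All AET libraries lay above all AET_MET libraries, and AET overlapped SED. The log2 difference of AET_MET from AET was -0.81 ± 0.25 (edgeR adjusted p = 0.114). mt-Rnr2 had 51911, 52062 and 45323 CPM in AET_MET and 78002, 53414 and 69236 CPM in AET, without overlap, a log2 difference of -0.43 ± 0.16 (edgeR adjusted p = 0.142). In SED it had 48335, 59819 and 70773 CPM, across the range of both other groups. mt-Nd6 and mt-Rnr1 had the same library, AET replicate 2, lowest within AET, and SED replicate 3 highest within SED. So had mt-Rnr2, mt-Nd1, mt-Co1, mt-Atp8 and mt-Cytb, and with copies also mt-Co2, mt-Atp6 and mt-Nd4l. The pattern was absent in mt-Nd2, mt-Nd3, mt-Nd4, mt-Nd5 and mt-Co3. mt-Rnr1 made up 9.25% ± 0.522 of rRNA counts in AET_MET, 11.6% ± 1.52 in AET and 9.19% ± 0.478 in SED (SD, n = 3).

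**Figure D3:**
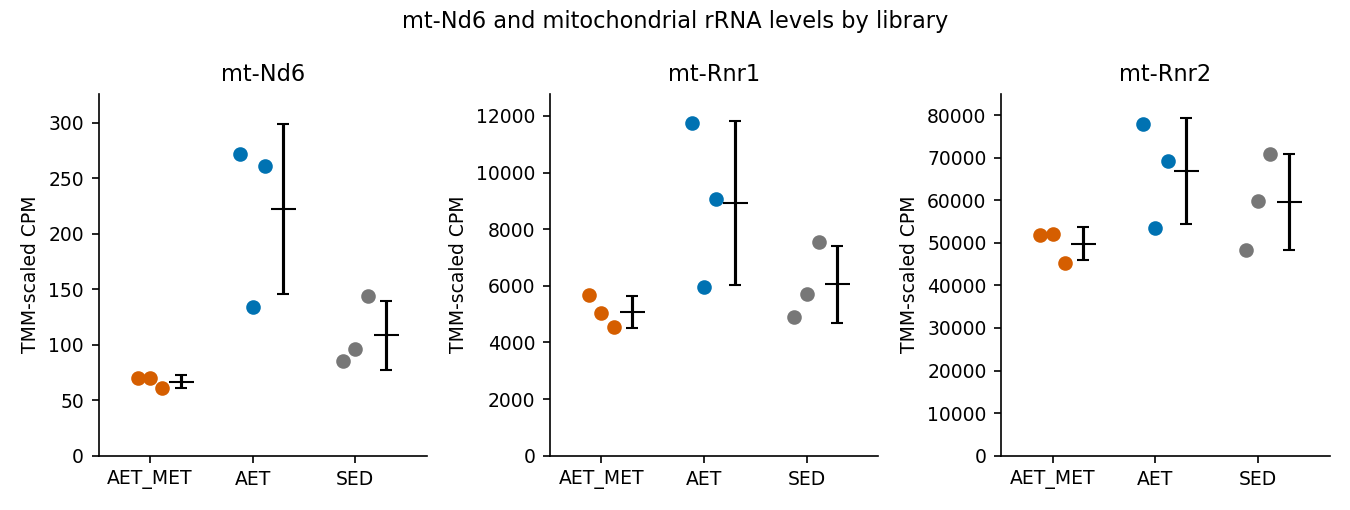
Level of mt-Nd6, mt-Rnr1 and mt-Rnr2 in each library (points) with the mean and SD of each group (bars), in TMM-scaled CPM as deposited. The AET_MET points lie below all AET points in each panel, and AET replicate 2, the middle AET point, is the lowest of its group in each.

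Among the complex IV and V mRNAs and mt-Nd3, the deposited counts and the sums with the copies gave different differences. As deposited, mt-Co2 had 156, 54.1 and 61.2 CPM in AET_MET, 18.6, 38.0 and 23.7 CPM in AET, and 73.7, 85.8 and 76.2 CPM in SED, with AET below both other groups. With the copy added it had 10781, 9874 and 9869.9 CPM in AET_MET, 12897, 10571 and 11914 CPM in AET, and 10441, 10005 and 12308 CPM in SED, and the groups overlapped. The log2 difference of AET_MET from AET was 1.75 ± 0.48 as deposited (edgeR adjusted p = 0.107) and -0.21 ± 0.10 with the copy (adjusted p = 0.261).

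mt-Nd3, a small membrane subunit of complex I, had 2233, 2084 and 1729 CPM as deposited in AET_MET, 319, 1193 and 762 CPM in AET, and 1729, 1672.5 and 1461 CPM in SED. With the copy it had 2233, 2084 and 1981 CPM in AET_MET, 1693, 1839 and 1864 CPM in AET, and 1876, 1725 and 2173 CPM in SED. AET_MET lay above AET without overlap both ways, and the log2 difference was 1.41 ± 0.44 as deposited (edgeR adjusted p = 0.13) and 0.22 ± 0.10 with the copy (adjusted p = 0.207).

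For mt-Co3 the log2 difference of AET_MET from AET was 1.04 ± 0.57 as deposited (edgeR adjusted p = 0.348) and -0.03 ± 0.09 with the copy (adjusted p = 0.895). Its sum with the copy held 18537, 18319 and 18222 CPM in AET_MET, against 17730.0, 18609 and 19796 CPM in AET, and with the copies this log2 difference was the smallest in size among the 15 genes. For mt-Atp6 the log2 difference was 0.58 ± 0.19 as deposited (edgeR adjusted p = 0.118) and -0.12 ± 0.12 with the copy (adjusted p = 0.611). mt-Co1, whose copy takes a minor share, had the log2 difference -0.17 ± 0.09 as deposited and -0.20 ± 0.10 with the copy (edgeR adjusted p = 0.287 and 0.247). Its AET_MET libraries, at 42823 to 44862 CPM with the copy, lay below all AET libraries (48328 to 52110.0 CPM) and all SED libraries (47214 to 57533 CPM).

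Of the complex I mRNAs, mt-Nd1, mt-Nd2, mt-Nd4 and mt-Nd5 had negative estimates in AET_MET against AET that shrank or turned without AET replicate 1. mt-Nd2 had 1813, 1263 and 1449 CPM in AET_MET, 3187, 1451 and 1772 CPM in AET, and 1570.0, 1483.5 and 1420.0 CPM in SED. AET replicate 1 was the highest of the 9 libraries for mt-Nd1, mt-Nd2, mt-Nd4 and mt-Nd5, and in mt-Nd2 the remaining AET libraries lay within the AET_MET range. Log2 differences of AET_MET from AET were -0.37 ± 0.14 for mt-Nd1, -0.50 ± 0.28 for mt-Nd2, -0.27 ± 0.25 for mt-Nd4 and -0.42 ± 0.35 for mt-Nd5, with edgeR adjusted p from 0.156 to 0.58. Without AET replicate 1 they were -0.17, -0.10, 0.08 and 0.05. mt-Cytb and mt-Atp8 differed by -0.11 ± 0.13 and -0.08 ± 0.12 on the log2 scale, and mt-Nd4l by 0.20 ± 0.30 as deposited and -0.36 ± 0.27 with its copy, and none of these passed the test. Without AET replicate 1 the mt-Nd4l values were 0.53 and 0.00.

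Over the 13 mRNAs, the median log2 difference of AET_MET from AET was -0.11 as deposited, with 5 estimates above and 8 below 0, and -0.21 with copies, with 1 above (mt-Nd3) and 12 below. Over all tested genes the median was 0.0007. Without AET replicate 1 the mRNA median was 0.07 as deposited and 0.00 with copies, so it rested on that library. An unadjusted edgeR p under 0.05 was found for 7 of the 15 genes as deposited and 5 with copies, where 21.4% of all tested genes had one in either version. DESeq2 called 5 of 15 as deposited, with mt-Atp6, mt-Co2 and mt-Nd3 higher and mt-Nd6 and mt-Rnr1 lower, where it called 6.31% of all genes. With copies it called mt-Nd6 and mt-Rnr1, both lower, where it called 6.25% of all genes.

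**Figure D4:**
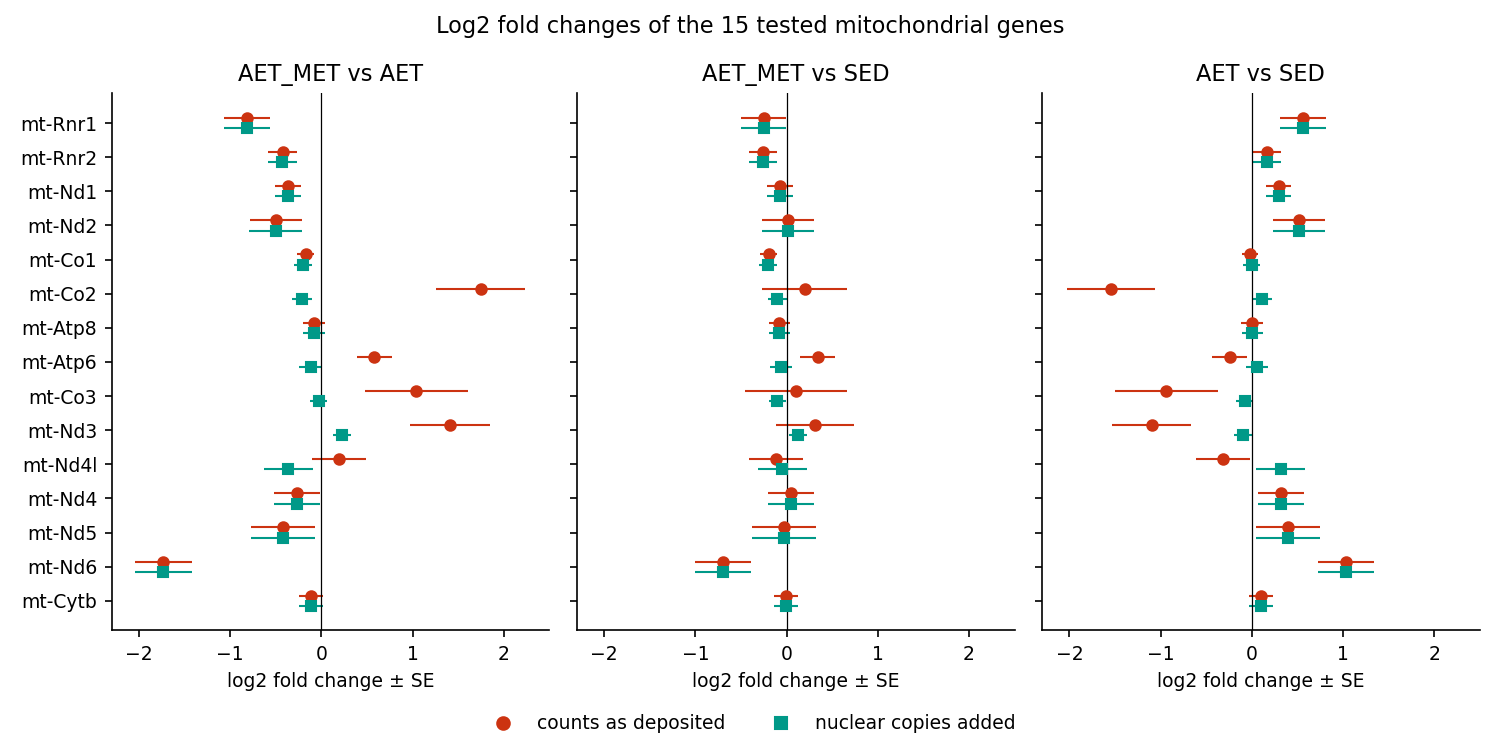
Log2 fold change with its SE for the 15 tested genes, in gene order, in AET_MET against AET, AET_MET against SED and AET against SED, from counts as deposited (circles) and with nuclear copies added (squares). The 2 versions part for mt-Co2, mt-Atp6, mt-Co3, mt-Nd3 and mt-Nd4l, and mt-Nd6 has the most negative value in AET_MET against AET in both.

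Ratios within a library do not depend on the scaling between libraries. With copies added, mt-Nd6 had 0.672, 0.712 and 0.623 counts per 1000 counts of the other 12 mRNAs in AET_MET, 2.20, 1.30 and 2.33 in AET, and 0.814, 0.935 and 1.20 in SED. The AET_MET libraries lay below all others, and all AET libraries above all SED libraries. The log2 ratio differed by -1.49 between AET_MET and AET, by -0.54 between AET_MET and SED and by 0.96 between AET and SED, as differences of group means without a test. There were 0.549 ± 0.0351 rRNA counts per mRNA count in AET_MET, 0.666 ± 0.0798 in AET and 0.599 ± 0.0795 in SED (SD, n = 3). AET replicate 2, at 0.576, lay within the AET_MET range of 0.513 to 0.583.

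**Figure D5:**
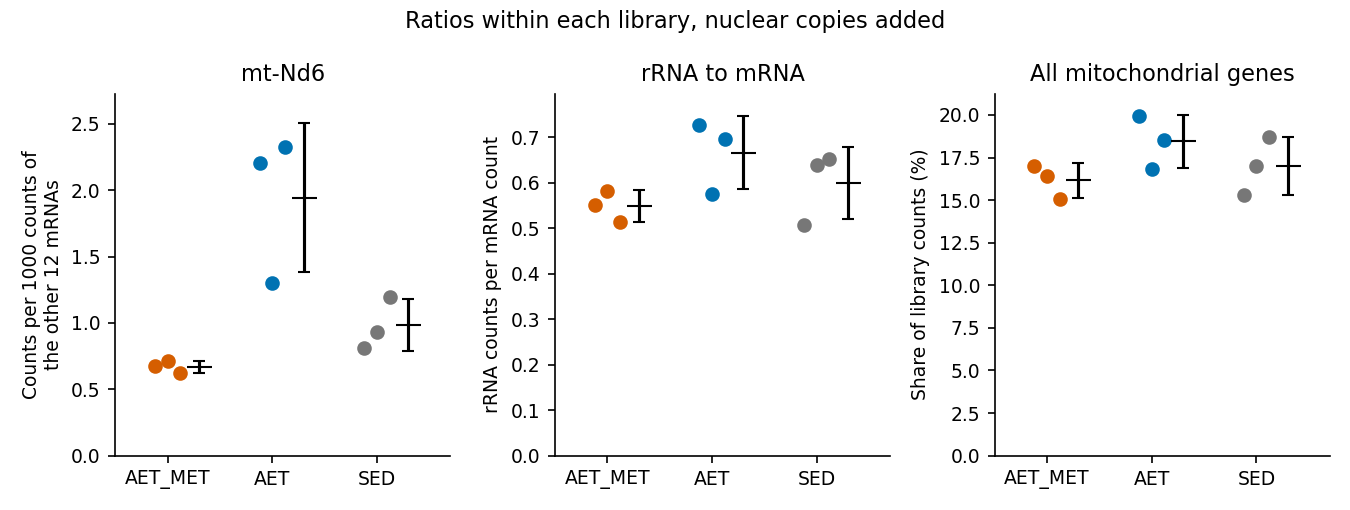
Ratios per library with copies added (points) and the mean and SD of each group (bars): mt-Nd6 counts per 1000 counts of the other 12 mRNAs, rRNA counts per mRNA count, and the percent of library counts on mitochondrial genes. For mt-Nd6 the AET_MET points lie between 0.623 and 0.712, below all AET and SED points, while the other ratios overlap between groups.

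By complex, the make-up of the mRNA pool with copies added differed little between groups. Complex IV took 72.8% ± 1.86 of mRNA counts in AET_MET, 72.2% ± 4.52 in AET and 74.5% ± 1.59 in SED. Complex I took 14.4% ± 1.14 in AET_MET, 15.7% ± 3.14 in AET and 13.4% ± 1.03 in SED, with AET replicate 1 highest of all at 19.2%. Complex V took 7.40% ± 0.302 in AET_MET, 7.05% ± 0.769 in AET and 7.10% ± 0.329 in SED, and mt-Cytb of complex III took 5.39% ± 0.423 in AET_MET, 5.12% ± 0.636 in AET and 4.98% ± 0.295 in SED (SD, n = 3 each). Each of these differences was smaller than the larger SD of the groups compared. These shares are of counts, so longer genes weigh more.

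AET_MET against SED asks whether trained mice on metformin differed from sedentary ones. None of the 15 genes was called by edgeR, where 4.59% of all tested genes were. An unadjusted p under 0.05 was found for 1 as deposited (mt-Co1) and 0 with copies, where 20.6% of all tested genes had one in either version. DESeq2 also called none, where it called 6.32% of all genes. The largest estimate in size was that of mt-Nd6, with a log2 difference of -0.70 ± 0.31 (edgeR adjusted p = 0.266) and no overlap between the groups. mt-Co1 differed by -0.20 ± 0.09 (adjusted p = 0.237). Over the 13 mRNAs the median log2 difference was -0.01 as deposited and -0.06 with copies, and over all tested genes 0.0026.

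AET against SED asks what training changed. None of the 15 genes was called by edgeR, where 12.3% of all tested genes were. At an unadjusted p under 0.05 there were 3 as deposited (mt-Co2, mt-Nd3 and mt-Nd6), and 1 with copies (mt-Nd6), where 28.5% and 28.4% of all tested genes had one. mt-Nd6 averaged 222 ± 76.7 CPM in AET and 108 ± 31.4 CPM in SED, a log2 difference of 1.03 ± 0.31 (edgeR adjusted p = 0.0766), and AET replicate 2 lay below SED replicate 3. Without AET replicate 2 the log2 change was 1.30 ± 0.20 and passed the test (adjusted p = 0.0102). Of the 9 fits that left out 1 library, it was the only 1 that passed. In the others the log2 change was 0.86 to 1.29, with an edgeR adjusted p of 0.0585 to 0.208. mt-Rnr1 had a log2 difference of 0.56 ± 0.25 (adjusted p = 0.187). As with the comparison of AET_MET and AET, these estimates rest on the same AET libraries, so the opposite signs in the 2 comparisons are not independent. Tendon cell markers summed to 133 to 303 CPM in AET and 309 to 505 CPM in SED, without overlap, with 0 of 5 called by edgeR. Endothelial markers summed to 217 to 249 CPM in AET and 190.1 to 218 CPM in SED, with overlap, and 1 of the 5 was higher by edgeR. The part of either list was not tested.

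The genes with copies also changed most between versions in AET against SED. mt-Co2 differed by -1.55 ± 0.48 on the log2 scale as deposited (edgeR adjusted p = 0.0928) and by 0.11 ± 0.10 with its copy (adjusted p = 0.52). mt-Nd3 differed by -1.10 ± 0.43 and -0.10 ± 0.10, and mt-Co3 by -0.94 ± 0.57 and -0.08 ± 0.09, as deposited and with copies. Over the 13 mRNAs the median log2 difference was 0.01 as deposited and 0.11 with copies, and over all tested genes 0.011. Without AET replicate 1 the medians were -0.09 and -0.04. DESeq2 called mt-Nd6 higher and mt-Co2 lower as deposited, where it called 12.1% of all genes, and with copies only mt-Nd6.

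Nuclear genes that express and maintain mtDNA were counted from a list of 62, of which 61 were tested. In AET_MET against AET, 0 rose and 0 fell by edgeR, where 3.43% of all genes were called, and DESeq2 called 0, where it called 6.31%. An unadjusted edgeR p under 0.05 was found for 5 of the 61, where 21.4% of all genes had one. In AET_MET against SED, 0 rose and 2 fell, where 2.42% of all genes fell. In AET against SED, 0 rose and 5 fell, where 6.45% of all genes fell. An unadjusted edgeR p under 0.05 was found for 10 of the 61 in AET_MET against SED, where 20.6% of all genes had one. In AET against SED it was found for 12 of the 61, where 28.5% of all genes had one. The median log2 difference over the 61 genes was -0.003, -0.071 and -0.094 in these 3 comparisons, in that order. By role, the 5 calls in AET against SED were 1 of 10 tested transcription genes, 3 of 15 RNA processing genes and 1 of 17 RNA modification genes. None of 12 replication genes and none of 7 stability and decay genes was called by edgeR in any comparison.

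Polrmt, the mitochondrial RNA polymerase, had 18.4, 20.4 and 18.7 CPM in AET_MET, 17.2, 17.1 and 17.1 CPM in AET, and 19.5, 21.3 and 22 CPM in SED. All AET libraries lay below all others, and Polrmt fell in AET against SED by 0.29 on the log2 scale (SE 0.08, edgeR adjusted p = 0.0379). That call was kept in 3 of 9 fits with 1 library left out, with an adjusted p of up to 0.109. It was also lost with DESeq2, with library sizes alone, with no filter on low counts, with the slow-fiber covariate and with only AET and SED in the fit. In AET_MET against AET the Polrmt log2 difference was 0.17 ± 0.08 (adjusted p = 0.275), opposite in sign to that of mt-Nd6.

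Cdk5rap1, which adds a methylthio group to mitochondrial tRNAs, had 6.80 ± 0.676 CPM in AET_MET, 6.48 ± 1.07 CPM in AET and 9.85 ± 0.630 CPM in SED. It fell in AET against SED by 0.60 on the log2 scale (SE 0.13, edgeR adjusted p = 0.0122) and in AET_MET against SED by 0.53 (SE 0.13, adjusted p = 0.0413). The call in AET against SED was kept in all 9 fits with 1 library left out, that in AET_MET against SED in 3. The call in AET_MET against SED was also lost with the slow-fiber covariate, with library sizes alone and with the replicate block. Ptcd1, a mitochondrial RNA-binding protein of the pentatricopeptide repeat family, had 8.69 ± 0.210 CPM in AET_MET, 8.66 ± 1.35 CPM in AET and 12.2 ± 1.14 CPM in SED. It fell by 0.49 in AET against SED (SE 0.12, edgeR adjusted p = 0.0202) and by 0.49 in AET_MET against SED (SE 0.12, adjusted p = 0.041), kept in 5 and 2 of 9 such fits. Its call in AET_MET against SED was lost with that covariate and with library sizes alone too. Beside these calls, the slow-fiber markers (70.6 to 646 CPM in AET_MET, 749 to 917 CPM in SED) and the tendon cell markers (89.5 to 210.4 CPM in AET_MET, 309 to 505 CPM in SED) did not overlap between AET_MET and SED. Both calls were lost with the slow-fiber covariate. As slow-fiber levels did not overlap between these groups, that fit cannot separate fiber make-up from group. The part of either marker list was not tested.

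Trmt10c and Elac2, which help to free the tRNAs from the precursor, also fell in AET against SED. Trmt10c, a subunit of mitochondrial RNase P, which cuts the 5′ ends of tRNAs, had 13.1 ± 1.72 CPM in AET and 16.9 ± 1.01 CPM in SED (log2 change -0.37 ± 0.10, edgeR adjusted p = 0.0344). Elac2, which cuts their 3′ ends, had 15.7 ± 1.10 CPM in AET and 19.4 ± 1.08 CPM in SED (log2 change -0.30 ± 0.09, adjusted p = 0.0375). These calls were kept in 5 and 2 of 9 fits with 1 library left out. Both were lost with library sizes alone, the slow-fiber covariate or only AET and SED in the fit. That of Elac2 was also lost with DESeq2, no filter or the replicate block. Tfam, which packages mtDNA and takes part in starting transcription, had 27.9 ± 0.887 CPM in AET_MET, 27.8 ± 1.93 CPM in AET and 28.2 ± 1.27 CPM in SED. The promoter factor Tfb2m (log2 difference of AET from SED -0.05 ± 0.08), the elongation factor Tefm (-0.08 ± 0.13), the helicase Twnk (0.10 ± 0.10), the polymerase Polg (-0.14 ± 0.07) and the mRNA-stabilising protein Lrpprc (0.06 ± 0.08) did not pass the test in any comparison.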

How the data were processed

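The authors deposited a table of RSEM expected counts for each gene in 9 libraries. STAR 2.5.3a, RSEM 1.3.0, edgeR 3.34.0 and GRCm38 are named without roles per the submitters' processing notes. The sources used here give no annotation release, filter or strand setting. Between 4.85% and 5.53% of values in a library were not whole, and all were rounded. Genes were tested with edgeR 4.0.16 (R 4.3.3; robust quasi-likelihood, TMM scaling, filterByExpr) in 1 fit of 9 libraries with 6 residual degrees of freedom, at a Benjamini-Hochberg adjusted p under 0.05 over 13944 genes. The edgeR fit was tested on simulated counts, for AET against SED only. Levels are TMM-scaled CPM, with SD over 3 libraries. Nuclear copies were found by comparing 31-base words of GENCODE M21 transcripts with mtDNA genes, and mismatches were counted without gaps. Sequences come from the GENCODE M21 transcripts of GRCm38. DESeq2 1.42.0, other scalings and filters, a slow-fiber covariate, a replicate block, added copies and leaving out libraries were alternatives. All mt- genes that passed the filter are named, with 7 fixed machinery genes and up to 4 called ones with the smallest p per comparison. Others (Lig3, Rpph1, Rmrp, an unnamed identifier) were chosen after their values were seen. The members, lists and rules were chosen with earlier results of these data known. Some combined alternatives were added after seeing the data. Counting limits cover counting error only. Of the list genes, 2 were matched by a RefSeq synonym.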

Additional observations from a re-analysis of the deposited data

How the results depend on the processing

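Adding nuclear copies turned the sign of the log2 difference for mt-Co2, mt-Atp6, mt-Co3 and mt-Nd4l in AET_MET against AET (-0.21, -0.12, -0.03 and -0.36), mt-Atp6 and mt-Co3 in AET_MET against SED (-0.06 and -0.10), and mt-Co2, mt-Atp6 and mt-Nd4l in AET against SED (0.11, 0.05 and 0.32). With the slow-fiber covariate mt-Co2 in AET_MET against SED was -0.72. Sign changes between values within 1 SE of 0 (45 cases) are not counted here. Leaving out 1 library gave ranges across 0 in AET_MET against AET for mt-Nd4 (-0.45 to 0.08), mt-Nd5 (-0.67 to 0.05) and mt-Nd4l with its copy (-0.54 to 0.00), in AET_MET against SED for mt-Co2 (-0.45 to 0.45), and in AET against SED for mt-Nd4 (-0.04 to 0.49), mt-Nd5 (-0.09 to 0.64), mt-Atp8 (-0.14 to 0.09) and, with copies, mt-Nd4l (-0.05 to 0.48), mt-Atp6 (-0.12 to 0.15) and mt-Co1 (-0.05 to 0.09). The mitochondrial genes called in AET_MET against AET numbered 0 with no filter, the slow-fiber covariate or 2 groups alone, 5 by DESeq2, and 0 to 2 with 1 library left out. With copies it was 2 by DESeq2, 0 with the covariate or the replicate block, and 0 to 2. In AET against SED they numbered 1 at 5 CPM in 3 libraries (mt-Nd6), 2 by DESeq2, 1 with the covariate or 2 groups alone (mt-Co2), and 0 to 2 with 1 library left out. With copies it was 1 by DESeq2 and 0 to 2. Of the machinery genes, AET_MET against AET had 1 call with library sizes alone (Lig3, higher). AET_MET against SED had 1 with library sizes alone (Lig3, higher), 0 with the covariate, 1 with the block (Ptcd1, without Cdk5rap1) and 0 to 2 with 1 library left out. AET against SED had 2 with library sizes alone, the covariate or 2 groups alone (Cdk5rap1 and Ptcd1), 3 by DESeq2 (these and Trmt10c) and 1 to 5 with 1 library left out. The labels do not say whether the replicate numbers, or the ending letters that AET and AET_MET names share, pair the libraries. Same-number correlations were -0.051 to 0.184, and those between unlike numbers were -0.172 to 0.14. Of 9 libraries, 4 correlated best with their own number. As the 2 ranges overlap, the correlations cannot decide whether the libraries are paired. With the replicate block on deposited counts 1 gene was called in AET_MET against AET, mt-Atp6 in place of mt-Nd6 (log2 -1.68 ± 0.31, edgeR adjusted p = 0.0661). The causes were not tested.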

Other observations

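The items here were chosen after their values were seen. The identifier ENSMUSG00000119584, which has no symbol in the annotation used, had 18707, 3563 and 6389 CPM in AET_MET, 32015, 12105 and 22631 CPM in AET, and 9969, 9053 and 18814 CPM in SED. Within AET its lowest library was replicate 2, and within SED its highest was replicate 3, as for mt-Nd6, mt-Rnr1 and several other mitochondrial genes. AET_MET replicate 1 stood far above the other AET_MET libraries for the identifier and not for mt-Nd6. The part of the identifier in the mt-Nd6 result was not tested. Rpph1, the RNA of nuclear RNase P, had 385, 400.3 and 362 CPM in AET_MET, 338, 403 and 366 CPM in AET, and 436, 413 and 457 CPM in SED. Rmrp, the RNA of RNase MRP, had 218, 186 and 190.1 CPM in AET_MET, 166, 311 and 201 CPM in AET, and 253, 228 and 304 CPM in SED. For both, AET replicate 2 was the highest library of AET.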
